A study of Mus musculus with 3 samples.

Results

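Id1, Id2, Id3, Id4 and 5 components of bone morphogenetic protein (BMP) signalling, Bmp4, Bmpr1a, Bmpr2, Smad6 and Smad7, were followed through the cells of the mouse intermediate lobe (IL) in 3 single cell libraries. These 9 genes were taken by name from the 17775 genes with a row in any of the count tables, 15527 of which had a row in all 3. The list was drawn up because Id3 had already been seen to be higher in the stem cells (SCs) of the library labelled P27NULL than in those of WT, so the genes were chosen by the stem cell values of Id3 in that contrast, which are given as a description. The question put to the data was whether the other Id genes and the components of the pathway followed Id3, and in which cells.

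The ILs were dissected from mice of 3 months carrying CreERT2 from the Sox9 locus, so that recombination was open to cells expressing Sox9. WT stood for Sox9iresCreERT2/+ animals, P27NULL for Sox9iresCreERT2/+;p27-/- animals, which carry a germline loss of the cell cycle inhibitor P27 (gene Cdkn1b), and S2CK for Sox9iresCreERT2/+;Sox2fl/+;p27-/- animals, in which a single copy of Sox2 was in addition deletable by CreERT2. All groups received tamoxifen, by gavage at 4 weeks in the labels. The study's text, where it presents these libraries, places the induction of Cre around birth. Each library was made from pooled ILs, and there was 1 library per genotype.

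The Id genes encode small helix-loop-helix proteins without a basic region. They pair with E proteins such as TCF3, TCF4 and TCF12 and keep these from binding DNA, and in many tissues they are high in progenitors and in endothelium and low in differentiated cells. BMP ligands bind a complex of type I and type II receptors, the type I receptor phosphorylates SMAD1, SMAD5 or SMAD9, and these enter the nucleus with SMAD4, where the Id genes are among the best known targets. SMAD6 and SMAD7 are induced by the same signal and feed back on the receptors.

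The sequence upstream of the Id genes is shown because SMAD proteins bind short motifs of the kind marked here. The windows hold the 250 bases before the annotated start, read 5′ to 3′ on the strand of the gene, from the RefSeq promoter table (GRCm38.p6), in which 7 of the 9 genes had an entry, all but Id1 and Smad7. Capitals mark GGCGCC, which reads alike on both strands, and CAGAC or its reverse complement GTCTG, the motifs searched, which do not overlap each other here. The Id3 window lies at chr4:136143572-136143821 on the plus strand, the Id2 window at chr12:25096093-25096342 on the minus strand and the Id4 window at chr13:48260866-48261115 on the plus strand.
Id3: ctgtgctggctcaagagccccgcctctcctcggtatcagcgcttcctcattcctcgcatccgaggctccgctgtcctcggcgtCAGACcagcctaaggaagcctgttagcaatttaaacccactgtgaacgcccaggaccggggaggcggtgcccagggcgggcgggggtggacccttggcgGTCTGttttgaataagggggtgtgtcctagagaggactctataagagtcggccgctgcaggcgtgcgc
Id2: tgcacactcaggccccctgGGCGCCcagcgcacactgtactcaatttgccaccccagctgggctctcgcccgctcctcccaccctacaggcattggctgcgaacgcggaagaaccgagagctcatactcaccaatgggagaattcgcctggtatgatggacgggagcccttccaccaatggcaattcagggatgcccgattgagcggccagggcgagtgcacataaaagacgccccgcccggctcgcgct
Id4: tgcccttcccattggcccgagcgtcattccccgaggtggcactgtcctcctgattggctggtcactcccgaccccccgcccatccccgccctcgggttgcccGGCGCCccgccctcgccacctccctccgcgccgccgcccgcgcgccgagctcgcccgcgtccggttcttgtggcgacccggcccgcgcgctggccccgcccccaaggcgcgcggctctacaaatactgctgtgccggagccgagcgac

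The Id3 window held CAGAC or GTCTG at 2 places, starting 167 and 68 bases before the start, and no GGCGCC. The Id2 and Id4 windows each held 1 GGCGCC, 231 and 148 bases before the start, and no CAGAC. Bmpr1a and Bmpr2 also held 1 GGCGCC each, while Bmp4 and Smad6 held neither motif. Of the 27025 windows in the table, 9.54% held GGCGCC and 42.1% held CAGAC or GTCTG. A match to the latter is thus common, one to GGCGCC less so, and both are given only as a description. The windows had GC contents of 62.8% for Id3, 62.8% for Id2 and 75.6% for Id4.

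The tables held 2020 WT, 4153 P27NULL and 3488 S2CK cells, with 8332285, 15588317 and 19239147 unique molecular identifiers (UMIs) and medians of 3642.5, 2740 and 4906.5 UMIs per cell. Pairs of libraries shared 2 to 4 barcodes. Cells were named from marker genes that include none of the 9. SC-like cells numbered 136 in WT, 104 in P27NULL and 82 in S2CK. Their 6 markers summed to 9990, 8401 and 5345 UMIs in every 1000000 (counts per 1000000, CPM) in that order, lowest in S2CK. In melanotroph-like cells the same markers summed to 26 to 31 CPM. Cdkn1b was at 47.0 CPM in WT, 50.2 CPM for P27NULL and 26.0 CPM for S2CK SC-like cells, so it was not lower in the library labelled P27NULL, which is what P27NULL stands for here. It was counted by 3′ tags, which need not lie in the deleted part. Sox2 was at 282, 309 and 135 CPM in the same order. By Xist and Y-linked transcripts all WT cells were called male, 18.4% of P27NULL cells female and 93.9% of S2CK cells female, so the libraries differed in sex as well as in genotype. The study describes the WT pool as male and both other pools as male and female, whereas few S2CK cells were not called female.

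CPM here is the UMI count of a gene over all UMIs of the named cells in a library, 1 UMI standing for 1 captured transcript whatever its length. Intervals are exact at 95%, Poisson for CPM, binomial for shares of cells, and conditional on the sum of both counts for ratios. They cover counting error only, since cells of 1 library share their animals and PCR, and no test between genotypes was possible. A gene was called past the fold where its CPM differed at least 2-fold (a log2 ratio of 1 or more in size) with at least 20 UMIs in both libraries together. The 3 contrasts share libraries and are not independent of each other.

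Id3 was higher in the SC-like cells of P27NULL than in those of WT, with S2CK between them. It stood at 86.4 CPM in WT (interval 63.3 to 115, 46 UMIs), at 444 CPM for P27NULL (380 to 517, 168 UMIs) and at 214 CPM for S2CK (179 to 254, 132 UMIs). The intervals of the 3 libraries did not overlap. The log2 ratio was 2.36 for P27NULL over WT (1.88 to 2.87), -1.05 for S2CK over P27NULL (-1.39 to -0.71) and 1.31 for S2CK over WT (0.82 to 1.83). With every cell counted equally the first of these was 1.76, and with every cell thinned to 1000 UMIs the last was 2.12.

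Cells with at least 1 Id3 UMI made up 14.0% of WT (8.63 to 21.0), 34.6% of P27NULL (25.6 to 44.6) and 24.4% of S2CK (15.6 to 35.1) SC-like cells, at median depths of 2027, 2317 and 3561.5 UMIs. Macrophage-like cells were taken as a reference, and whether they lack Id3 or the other genes was not tested. Their Id3 shares were 0.741% in WT, 2.52% in P27NULL and 5.17% in S2CK, below the shares of SC-like cells in each library. Their median depths were 1539, 1964 and 2558.5 UMIs. After every SC-like cell was thinned to 1000 UMIs, which left out 11 WT cells, the Id3 shares were 6.4%, 21.2% and 10.98%. P27NULL thus had the highest share with and without the thinning, but its interval overlapped that of S2CK both times, as did those of S2CK and WT.

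Id3 UMIs were concentrated in few cells. The 5 SC-like cells with most Id3 held 26 of the 46 UMIs in WT, 79 of 168 in P27NULL and 93 of 132 in S2CK. The highest cell held 7, 20 and 26 UMIs. At least 3 Id3 UMIs were found in 5 WT, 18 P27NULL and 11 S2CK cells. The level in S2CK therefore rested on fewer cells than that in P27NULL, and the position of S2CK below P27NULL changed with how cells were weighted. When each cell counted equally the log2 ratio of S2CK over P27NULL was -0.18, when each was thinned to 1000 UMIs it was -0.35, with trimmed mean (TMM) scaling it was -0.95, on a total that left out Pomc and the mitochondrial and ribosomal protein genes -0.92, and with names from each library alone -0.80, all short of the fold.

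**Figure D1:**
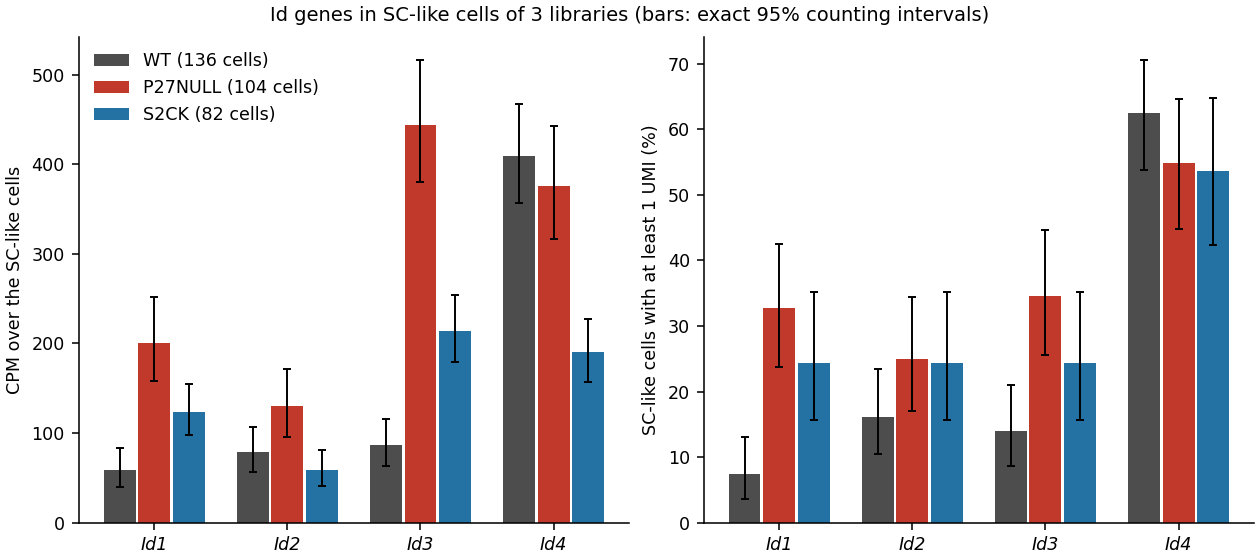
Level (left, CPM, with exact Poisson 95% intervals) and share of cells with at least 1 UMI (right, percent, with exact binomial intervals) of Id1 to Id4 in SC-like cells of the WT, P27NULL and S2CK libraries, 1 library per genotype. Id3 and Id1 are highest in P27NULL, at 444 and 201 CPM, while Id4 is at 410, 376 and 190 CPM.

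Id1 was the other Id gene that was past the fold in P27NULL SC-like cells. It stood at 58.2 CPM in WT (39.6 to 82.7, 31 UMIs), at 201 CPM for P27NULL (158 to 252, 76 UMIs) and at 123 CPM for S2CK (97.2 to 154, 76 UMIs). The order of the libraries was that of Id3, with the interval of WT apart from both others and those of P27NULL and S2CK apart by a narrow margin. The log2 ratio of Id1 was 1.79 for P27NULL over WT (1.17 to 2.44), -0.70 for S2CK over P27NULL (-1.18 to -0.23) and 1.08 for S2CK over WT (0.46 to 1.73). On cells thinned to 1000 UMIs, where WT kept 6 Id1 UMIs, the ratios over WT were 2.49 and 1.83. Cells with an Id1 UMI made up 7.35% of WT, 32.7% of P27NULL and 24.4% of S2CK, and 4.0%, 18.3% and 6.10% at 1000 UMIs per cell. In macrophage-like cells Id1 had 0 UMIs in 135 WT and 119 P27NULL cells and 1 UMI in 116 S2CK cells.

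Id2 was higher in P27NULL by less than Id3 and Id1, and Id4 was not higher. Id2 was at 78.9 CPM in WT (56.9 to 107), 130 CPM for P27NULL (95.9 to 171) and 58.4 CPM for S2CK (40.9 to 80.9), with 36 to 49 UMIs per library. Its log2 ratio of 0.72 for P27NULL over WT (0.09 to 1.35) was short of the fold, and that of S2CK over P27NULL, -1.15 (-1.81 to -0.50), was past it. Against WT, Id2 of S2CK had a log2 ratio of -0.43 (-1.12 to 0.24), an interval that holds 0. The lower level of Id2 in S2CK than in P27NULL was short of the fold when cells counted equally, at a log2 ratio of -0.70, and its ratio of P27NULL over WT passed the fold, at 1.06, without the SC-like cells holding a UMI of an endothelial or mural marker.

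Id4 was at 410 CPM in WT (357 to 468, 218 UMIs), 376 CPM for P27NULL (316 to 443, 142 UMIs) and 190 CPM for S2CK (157 to 228, 117 UMIs). WT and P27NULL thus overlapped and S2CK lay below both. The summed SC-like markers and Sox2 were also lowest in S2CK SC-like cells, and their relation to the level of Id4 was not tested. The log2 ratio of Id4 was -0.13 for P27NULL over WT (-0.44 to 0.19), -0.98 for S2CK over P27NULL (-1.35 to -0.62) and -1.11 for S2CK over WT (-1.45 to -0.78). The second of these passed the fold on thinned cells, at -1.54. At 1000 UMIs per cell 33.6% of WT, 30.8% of P27NULL and 13.4% of S2CK cells held an Id4 UMI, while the unthinned shares were 62.5%, 54.8% and 53.7%. Id4 was the Id gene found in most SC-like cells of each library, against 4.20% to 8.62% of macrophage-like cells.

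Summed, the Id genes came to 633 CPM in WT (567 to 705), 1150 CPM for P27NULL (1045 to 1264) and 586 CPM for S2CK (527 to 650). The intervals of WT and S2CK overlapped, but the make-up of the sum differed between them. Id4 contributed 64.7% of the Id UMIs in WT, 32.6% in P27NULL and 32.4% in S2CK, and Id3 13.6%, 38.6% and 36.6%. Id1 and Id3 together had the larger part in the mutant libraries, whereas Id4 had it in WT. The sum holds Id3, by whose P27NULL and WT values the list was chosen. Sums and shares are therefore given as a description, and nothing is read from them.

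Across all genes tested in SC-like cells, 4.3% of 5858 were past the fold in the direction of P27NULL over WT and 3.04% in the other direction. Of the 9 genes, 7 reached the UMI minimum in this contrast, and Id1 and Id3 were past the fold, both higher. Counted from the highest ratio, Id3 ranked 9 and Id1 25, while Id2 ranked 535, Smad7 656, Bmpr1a 1693, Bmpr2 1922 and Id4 3640. The median log2 ratio was 0.63 over the 7 genes and 0.01 over all genes tested. Since the list was chosen by Id3 in this contrast, the count, ranks and median are given as a description and nothing is read from them. Id1 and Id3 are also in the SC gene list that the study drew from these libraries, so their place here is not independent evidence.

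For S2CK over P27NULL 5.04% of 6173 genes were past the fold upwards and 7.44% downwards. Of the 7 genes tested, none was higher and Id2 and Id3 were lower past the fold, with Id4 just short of it. For S2CK over WT the background was 5.45% upwards and 5.86% downwards of 6659 genes. Here Id1 and Id3 were higher and Id4 lower past the fold. The median over the 7 genes was -0.70 for S2CK over P27NULL and 0.09 for S2CK over WT, against -0.09 and -0.09 over all genes. The list was chosen by the P27NULL and WT values of Id3, which also enter these contrasts. The study's SC list holds genes that differed from control in a cluster of mostly P27NULL cells but not in one of mostly S2CK cells. Nothing is therefore read from the counts and medians of these contrasts. The call of Id3 in S2CK over WT ended, at a log2 ratio of 0.97, when SC-like cells holding a UMI of an endothelial or mural marker were left out, and Id4 was at -0.999 on the total that left out Pomc and the mitochondrial and ribosomal protein genes.

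**Figure D2:**
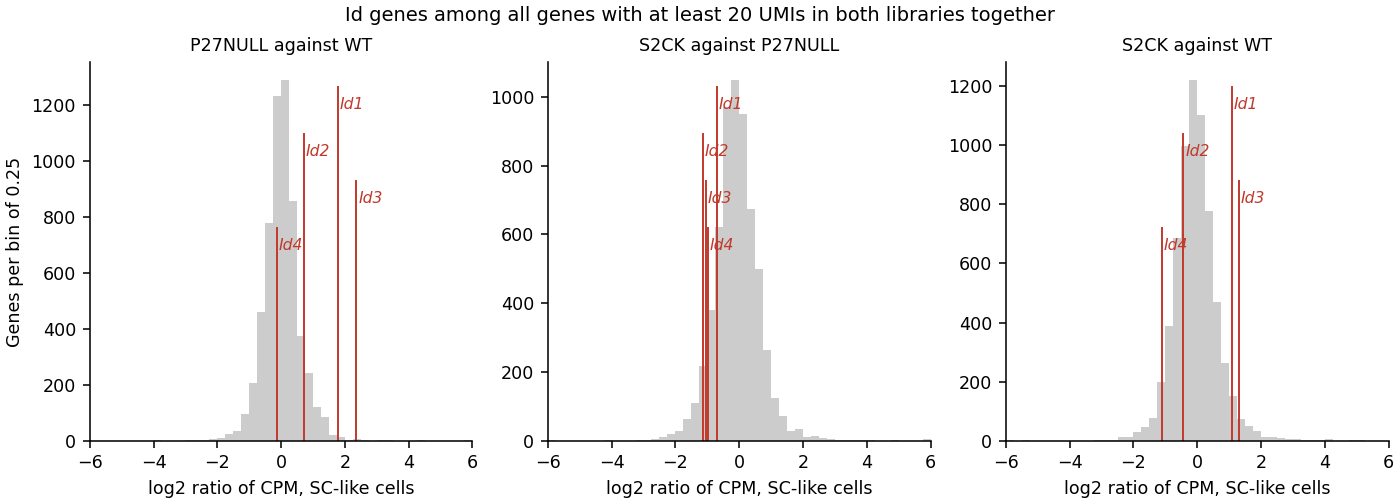
Number of genes (vertical axis) by log2 ratio of CPM (horizontal axis) in SC-like cells for the 3 contrasts, over all genes with at least 20 UMIs in both libraries together, with the Id genes marked by lines. Id3 and Id1 lie in the right tail of P27NULL over WT at 2.36 and 1.79, and Id4 lies near 0 there and in the left tail of S2CK over WT at -1.11.

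Id3 and Id1 were often found in the same SC-like cells. Over the 3 libraries an Id1 UMI was present in 48 of 75 cells with Id3 (64.0%) and in 16 of 247 cells without it (6.48%). The counts were 9 of 19 against 1 of 117 in WT, 26 of 36 against 8 of 68 in P27NULL and 13 of 20 against 7 of 62 in S2CK. Id2 was present in 52.0% of cells with Id3 and 11.7% of cells without, Id4 in 68.0% and 54.7%. Cells with Id3 also had more UMIs, with medians of 3838 against 2175, so part of any joint detection is shared depth, and no test was made of it. The immediate early gene Fos was present in 57 of the 75 cells with Id3 and 98 of the 247 without, and the Notch target Hes1 in 55 and 144.

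Other genes of SC-like cells were higher in P27NULL than in WT as Id3 was, but Fos and Hes1 were near their WT level in S2CK and Ier2 was below it. In the order WT, P27NULL and S2CK, Fos was at 763, 1965 and 786 CPM, Ier2 at 1757, 3681 and 1354 CPM, Atf3 at 20.7, 222 and 81.2 CPM, and Hes1 at 428, 933 and 453 CPM. Fos, Ier2 and Atf3 are stress and immediate early genes that can be induced by cell dissociation. Their part in the levels of Id1 and Id3 was not tested.

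Cells of vessels hold far more Id3 than SCs, so their markers were counted in the SC-like cells. The 10 endothelial markers summed to 30.1 CPM in WT, 31.7 CPM for P27NULL and 26.0 CPM for S2CK SC-like cells, in 5, 3 and 3 cells, against 6534 to 8870 CPM in endothelial-like cells. The 9 mural markers summed to 31.9, 47.6 and 66.6 CPM in 15, 14 and 17 cells. The endothelial markers at 0 were Tie1, Flt1, Esam and Cldn5 in WT, Cdh5, Esam and Cldn5 in P27NULL, and Pecam1, Kdr, Tie1 and Flt1 in S2CK, so that 6, 7 and 6 of the 10 were detected. Of the mural markers 5, 3 and 7 were detected. Without the cells holding any of these UMIs the log2 ratio of Id3 for P27NULL over WT was 2.33, and that for S2CK over WT was 0.97, short of the fold. The connective tissue markers were at 48.9, 153 and 148 CPM in 18, 8 and 22 SC-like cells, and the smooth muscle actin gene Acta2 at 28.2, 175 and 110 CPM, higher in both mutant libraries as Id3 was, and the part of these cells was not tested. Acta2 was found in 10.7% of SC-like cells with Id3 and 10.5% of those without.

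The P27NULL library held SC-like cells of both sexes, 86 called male and 18 called female, where a male call can also be a female cell with no Xist UMI. Id3 was at 504 CPM in the male cells (166 UMIs, 39.5% of cells) and at 41.2 CPM in the female cells (2 UMIs, 11.1%), at median depths of 2399 and 1958 UMIs. The log2 ratio of male over female was 3.61 (1.74 to 6.67), a wide interval that rests on the 2 UMIs. Against the male WT cells, male P27NULL cells had a log2 ratio of 2.54 (2.06 to 3.05) and female P27NULL cells one of -1.07 (-4.16 to 0.86).

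The contrast of S2CK with P27NULL turned with this split. Against male P27NULL cells the log2 ratio of Id3 in S2CK was -1.23 (-1.57 to -0.89), and against female P27NULL cells, the sex of most S2CK cells, it was 2.38 (0.50 to 5.44). The lower level of Id3 in S2CK than in P27NULL was therefore found against male cells and not against the few female cells, and genotype and sex cannot be told apart for it. The pooled animals carry no label of their own, so sex and animal cannot be told apart either.

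Id1 did not share this split. It was at 191 CPM in male and 268 CPM in female P27NULL SC-like cells (63 and 13 UMIs), a log2 ratio of male over female of -0.49 (-1.36 to 0.50). Both lay above WT, with log2 ratios of 1.71 (1.07 to 2.38) and 2.20 (1.14 to 3.18). Id1 in S2CK had a log2 ratio of -1.12 (-1.98 to -0.14) against the female P27NULL cells. Id4 was at 355 CPM in male and 515 CPM in female P27NULL cells, and S2CK lay below both, at log2 ratios of -0.90 (-1.28 to -0.52) and -1.44 (-2.07 to -0.75). Of the early genes, Ier2 was at 3984 CPM in male and 1626 CPM in female cells and Atf3 at 246 and 61.7 CPM. Fos and Jun differed less, at log2 ratios of male over female of 0.65 (0.27 to 1.04) and 0.49 (0.12 to 0.89). The intervals of Junb, at 0.38 (-0.01 to 0.80), and Egr1, at 0.19 (-0.41 to 0.86), held 0. These ratios are of levels, and the shares of cells were lower in female cells. Fos was found in 68.6% of male and 33.3% of female cells, Junb in 69.8% and 33.3%. Egr1 was found in 53.5% and 16.7%, and Jun in 75.6% and 61.1%. The female shares of Fos, Junb and Egr1 rest on 6, 6 and 3 cells, and these differences were not tested. Hes1 was at 929 and 967 CPM. The contractile gene Acta2 was at 194 CPM in male and 41.2 CPM in female cells (64 and 2 UMIs) and Igfbp7, one of the genes most like Id3 over cell types, at 121 and 0 CPM (40 and 0 UMIs). Their part in the split of Id3 was not tested.

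**Figure D3:**
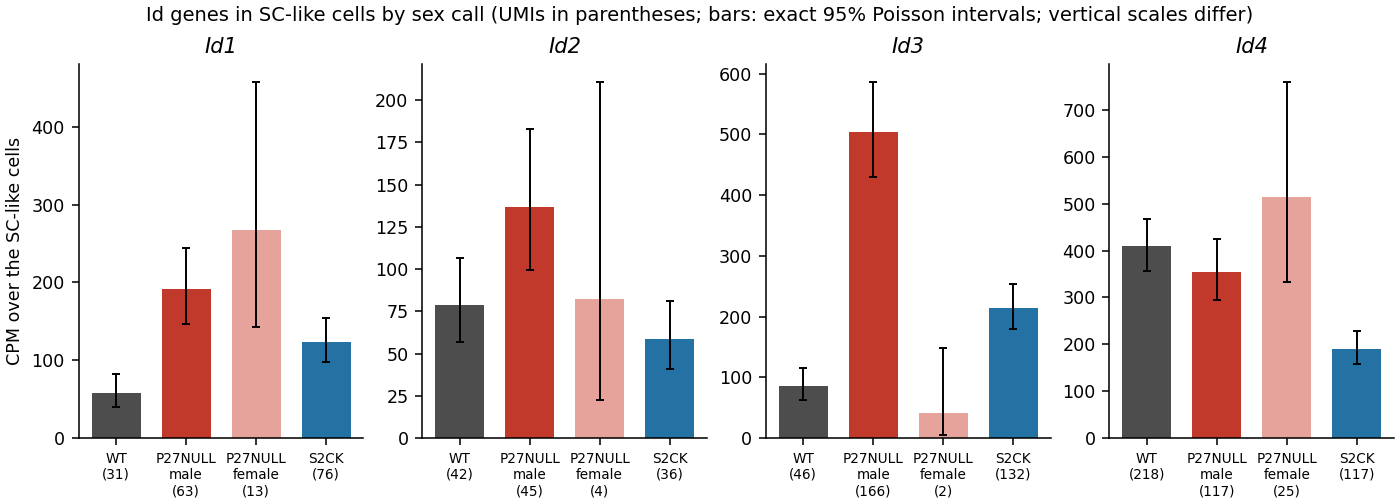
Level (CPM, exact Poisson 95% intervals) of Id1 to Id4 in SC-like cells of WT, P27NULL cells called male (86) or female (18), and S2CK. Id3 is at 504 CPM in male and 41.2 CPM in female P27NULL cells, while Id1 is at 191 and 268 CPM.

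Of the receptors, the type I receptor gene Bmpr1a was at 48.9 CPM in WT, 58.2 CPM for P27NULL and 51.9 CPM for S2CK SC-like cells (26, 22 and 32 UMIs). Its log2 ratios were 0.25 (-0.64 to 1.13), -0.16 (-0.99 to 0.69) and 0.09 (-0.70 to 0.89) for P27NULL over WT, S2CK over P27NULL and S2CK over WT. The type II receptor gene Bmpr2 was at 20.7, 23.8 and 29.2 CPM (11, 9 and 18 UMIs), with log2 ratios of 0.20 (-1.25 to 1.61), 0.30 (-0.93 to 1.63) and 0.50 (-0.66 to 1.73). None of these ratios was past the fold, and at this depth most of the intervals would also hold a 2-fold difference in level.

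Of the inhibitors, Smad7 was at 18.8, 29.1 and 19.5 CPM (10, 11 and 12 UMIs), with log2 ratios of 0.63 (-0.74 to 2.02), -0.58 (-1.89 to 0.74) and 0.05 (-1.28 to 1.42). Smad6 had 7, 8 and 11 UMIs, 13.2, 21.2 and 17.9 CPM, and was below the UMI minimum in every contrast. The ligand gene Bmp4 had 0 UMIs in WT, which allows up to 5.64 CPM as 3 counts (6.93 CPM by the exact interval), 2 UMIs in P27NULL (5.29 CPM) and 3 in S2CK (4.87 CPM), so no fold is given. Of these genes Bmpr1a was found in more SC-like cells (16.2%, 17.3% and 22.0%) than macrophage-like cells (3.70%, 2.52% and 3.45%), with separate intervals in each library. The intervals of both cell types overlapped for Smad7 in each library, for Bmpr2 in WT and P27NULL and for Smad6 in WT. Their shares there are not told from those of macrophage-like cells, and whether these express the genes was not tested.

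**Figure D4:**
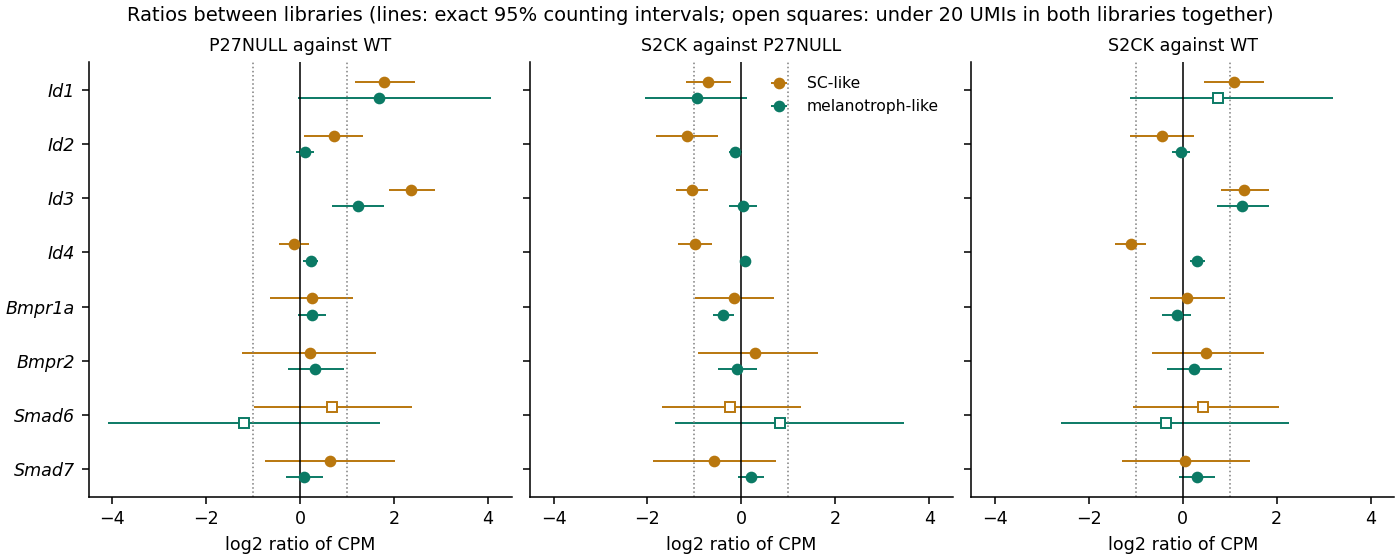
Log2 ratio of CPM with exact 95% intervals in SC-like (brown) and melanotroph-like (green) cells for the genes other than Bmp4, 1 panel per contrast, with open squares for genes under 20 UMIs and dotted lines at the 2-fold difference. In SC-like cells Id3 and Id1 of P27NULL over WT lie apart from 0 at 2.36 and 1.79, while the intervals of Bmpr1a, Bmpr2 and Smad7 hold 0.

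The wider BMP list held 71 genes, with ligands, receptors, SMADs, inhibitors, antagonists, targets and E proteins. In P27NULL over WT SC-like cells 25 of the 71 reached the UMI minimum, and Id1 and Id3 were again the genes past the fold, with none lower. Without the 9 genes, 0 of 18 were past the fold, with a median log2 ratio of 0.11. Over all genes tested 4.3% were higher and 3.04% lower past the fold. A count of 0 among 18 genes is not told from these shares, and nothing is read from it. In the order WT, P27NULL and S2CK, the signal-carrying Smad4 was at 65.8, 74.0 and 61.7 CPM, and Smad5 at 37.6, 45.0 and 27.6 CPM. The E protein genes Tcf3 and Tcf4, whose products are held by ID proteins, were at 31.9, 42.3 and 30.8 CPM and at 113, 151 and 138 CPM.

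In S2CK over P27NULL 24 genes of the list reached the minimum, with a median of -0.41. Over all genes tested 5.04% were higher and 7.44% lower past the fold. Tcf12, another E protein gene, was higher past the fold, at 42.2 against 18.5 CPM (log2 ratio 1.19, -0.05 to 2.64). Id2, Id3 and Msx1, a homeobox gene and BMP target, were lower. Msx1 was at 365 CPM in WT, 510 CPM for P27NULL and 214 CPM for S2CK, so that S2CK was lowest, with log2 ratios of 0.49 (0.19 to 0.78), -1.25 (-1.58 to -0.93) and -0.77 (-1.10 to -0.44).

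In S2CK over WT 27 genes reached the minimum, with a median of -0.05. Over all genes tested 5.45% were higher and 5.86% lower past the fold. Beside Id1 and Id3, Smad1 was higher past the fold at 24.4 against 9.39 CPM (log2 ratio 1.37, -0.16 to 3.19), as was Crim1, a membrane protein that binds BMPs, at 30.8 against 13.2 CPM (1.23, -0.08 to 2.72). Both intervals hold 0. Beside Id4, the lower genes were the ubiquitin ligase Smurf2, which acts on SMADs and receptors, at 13.0 against 30.1 CPM (-1.21, -2.64 to 0.10), the secreted antagonist Dand5 at the same levels, and Fstl1, a secreted BMP-binding protein, at 42.2 against 107 CPM (-1.34, -2.07 to -0.65). Fstl1 was thus the gene of these outside the 9 whose interval lay apart from 0.

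Melanotrophs, the endocrine cells of the lobe, made up most of each library (1245 WT, 3511 P27NULL and 2670 S2CK melanotroph-like cells). Id3 was at 5.72 CPM in WT (34 UMIs), 13.3 CPM for P27NULL (181 UMIs) and 13.7 CPM for S2CK (210 UMIs), with log2 ratios of 1.22 (0.69 to 1.80), 0.04 (-0.26 to 0.33) and 1.26 (0.73 to 1.83). Across the clusters of melanotroph-like cells it ranged from 0 to 6.16 CPM in WT (5 clusters), 2.56 to 25.6 CPM for P27NULL (7 clusters) and 8.71 to 23.0 CPM for S2CK (8 clusters). The share of cells with an Id3 UMI was 2.57%, 3.45% and 5.09%, in S2CK not above the 5.17% of macrophage-like cells. The intervals of both cell types overlapped in every library, so the melanotroph share is not told from that of macrophage-like cells. Id3 in macrophage-like cells was at 4.07, 8.996 and 16.03 CPM, on 1, 3 and 6 UMIs, in the same order as in melanotroph-like cells. The Id3 level of melanotroph-like cells is therefore not told from that of macrophage-like cells, and nothing is read from its ratios. The highest melanotroph-like cell held 2 Id3 UMIs in WT, 7 in P27NULL and 10 in S2CK. Whether melanotroph-like cells express Id3 was not tested.

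Id1 was at 0.504, 1.62 and 0.847 CPM in melanotroph-like cells (3, 22 and 13 UMIs), in at most 0.541% of cells, also not told from macrophage-like cells. Id2 and Id4 were found in many more cells. Id2 was at 52.6, 56.2 and 51.4 CPM in 20.5%, 17.2% and 23.0% of cells, with log2 ratios between -0.13 and 0.09. Id4 was at 77.5, 90.7 and 96.1 CPM in 29.2%, 25.9% and 38.95% of cells. The log2 ratio of Id4 in melanotroph-like cells was 0.23 (0.07 to 0.38), 0.08 (-0.03 to 0.19) and 0.31 (0.16 to 0.46), small differences in the opposite direction to SC-like cells for S2CK. At 1000 UMIs per cell the shares of Id4 were 8.54%, 8.54% and 8.84%, and the log2 ratio of S2CK over WT was 0.09.

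In melanotroph-like cells Bmpr1a was at 21.3, 25.4 and 19.5 CPM, with a log2 ratio of -0.38 (-0.61 to -0.16) for S2CK over P27NULL. Bmpr2 was at 5.72, 7.14 and 6.71 CPM and Smad7 at 13.3, 14.1 and 16.4 CPM, with every interval between the libraries holding 0. Smad6 had 3, 3 and 6 UMIs and Bmp4 0, 1 and 1. Bmpr2 was found in 2.73%, 2.59% and 3.71% of melanotroph-like and 2.96%, 1.68% and 2.59% of macrophage-like cells. The intervals overlapped, so that its share is not told from that of macrophage-like cells. Smad7 was at 16.3, 15.0 and 29.4 CPM in macrophage-like cells, not below its level in melanotroph-like cells. Bmpr1a was found in 9.24%, 8.35% and 9.70% of melanotroph-like and 3.70%, 2.52% and 3.45% of macrophage-like cells, with overlapping intervals in WT.

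The background in melanotroph-like cells was 3.44% of 12928 genes higher and 1.29% lower past the fold in P27NULL over WT, 1.64% and 4.51% of 13409 genes in S2CK over P27NULL, and 3.14% and 3.22% of 12908 genes in S2CK over WT. Of the 71 genes of the BMP list 36, 38 and 36 reached the UMI minimum. Those past the fold were Bmp6, Id1 and Id3 in P27NULL over WT, none between S2CK and P27NULL, and Bmp6 and Id3 upwards and Bmp7, Bambi, Hey1 and Msx1 downwards in S2CK over WT. The ligand gene Bmp6 was at 1.01, 3.09 and 3.19 CPM and the ligand gene Bmp7 at 4.54, 3.98 and 2.15 CPM. Bambi, a decoy receptor, was at 7.06, 3.76 and 3.26 CPM and the target Hey1 at 3.87, 2.43 and 1.24 CPM. These 4 genes were found in at most 3.13% of melanotroph-like cells in any library, with intervals that overlapped those of macrophage-like cells, so that, as for Id1 and Id3, nothing is read from their ratios. Msx1 was at 138, 98.7 and 68.0 CPM, in 40.4%, 27.2% and 28.3% of melanotroph-like cells against 4.44%, 5.04% and 5.17% of macrophage-like cells. Msx1 was lowest in S2CK in both SC-like and melanotroph-like cells, and its log2 ratio of S2CK over WT in the latter was -1.02 (-1.15 to -0.89).

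Across cell types Id3 was highest in endothelial-like cells, at 1657 CPM in WT, 1126 CPM for P27NULL and 1311 CPM for S2CK, in 82.1%, 66.7% and 88.6% of cells. Connective-tissue-like cells followed at 857, 893 and 849 CPM, with a log2 ratio of 0.06 (-0.35 to 0.47) for P27NULL over WT. The intervals of these neighbours in the order overlapped in P27NULL and did not in WT and S2CK. In the types other than these and SC-like cells Id3 was at 115 CPM or less. In endothelial-like cells the log2 ratio of Id3 was -0.56 (-0.97 to -0.16) for P27NULL over WT and -0.34 (-0.65 to -0.03) for S2CK over WT, the opposite direction to SC-like cells. The P27NULL endothelial-like cells numbered 21.

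Id1 had the same leading cell types, with 462, 266 and 162 CPM in endothelial-like and 230, 107 and 137 CPM in connective-tissue-like cells. In WT both were above the 58.2 CPM of SC-like cells, whereas in P27NULL the 201 CPM of SC-like cells lay between them. The ratio of Id1 for S2CK over WT was -1.51 (-2.33 to -0.75) in endothelial-like cells and that for P27NULL over WT was -1.11 (-2.19 to -0.10) in connective-tissue-like cells. The higher Id1 level of the mutant libraries in SC-like cells was thus not found in endothelial-like or connective-tissue-like cells.

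Id2 was highest in T- or NK-like cells in WT and S2CK, at 302 and 404 CPM, and in connective-tissue-like cells for P27NULL, at 197 CPM next to 159 CPM in T- or NK-like cells, and was also found in macrophage-like cells at 57.0, 99.0 and 115 CPM. Id4 was highest in SC-like cells in all 3 libraries, followed by pituicyte-like cells (163 CPM in WT and 211 CPM for P27NULL, none named in S2CK) and melanotroph-like cells. Corticotroph-like cells held Id4 at 72.4 CPM in WT, 52.9 CPM for P27NULL and 45.1 CPM for S2CK. Bmpr2 was highest in endothelial-like cells at 107, 93.8 and 113 CPM, where Smad7 was at 82.4, 15.6 and 64.8 CPM. Bmp4 was found mainly in connective-tissue-like cells, at 61.8, 32.8 and 39.2 CPM on 7, 4 and 6 UMIs, and was at 0 in corticotroph-like, macrophage-like, Pou1f1-lineage-like and T- or NK-like cells of every library.

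**Figure D5:**
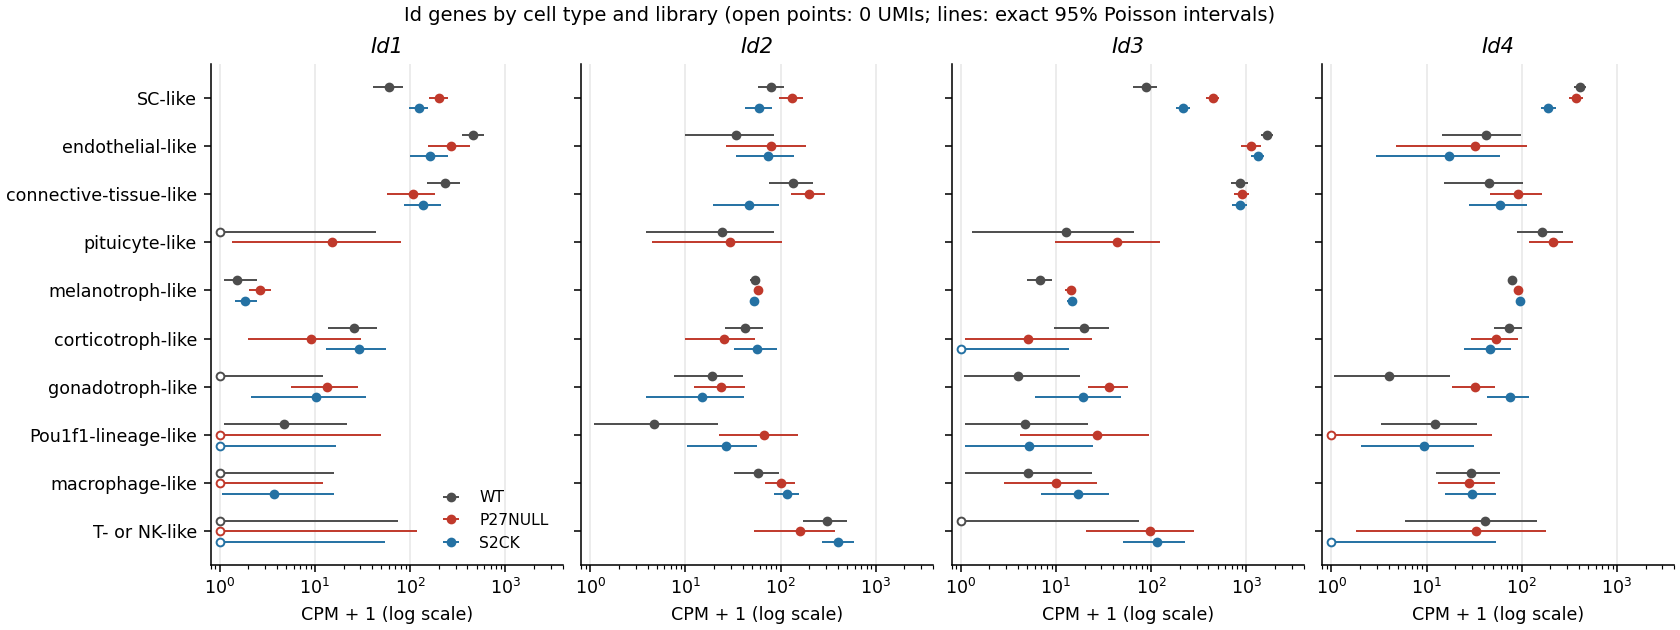
Level (CPM plus 1, log axis) of Id1 to Id4 in 10 named cell types of the WT, P27NULL and S2CK libraries, 1 point per library with its exact Poisson 95% interval and open points for 0 UMIs. Id3 and Id1 are highest in endothelial-like cells and Id4 in SC-like cells, while Id2 is spread over more types.

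Over 27 combinations of library and cell type and 12068 genes, the genes whose level was most like that of Id3 were Myl9 and Col4a1 (Pearson's r of 0.93 each on log2(CPM + 10)), Cxcl12, Mgp and Igfbp7 (0.92 each), among which Myl9 encodes a myosin light chain of contractile cells and Col4a1 a basement membrane collagen. Those most like Id1 were Tm4sf1 (0.93), Cavin1 (0.92), Ltbp4, Tns2 and Myl9 (0.91 each). Id1 had rank 10 in the order for Id3 at 0.90, and Bmpr2 rank 148 at 0.75, while Id2 had an r of 0.32 and Id4 one of 0.18 with Id3. The points share libraries and depth, and the values describe the pattern over cell types, which endothelial-like and connective-tissue-like cells dominate.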

How the data were processed

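Single cells of dissected mouse ILs were measured in 3 droplet libraries, 1 per genotype. The tables deposited by the authors hold raw UMI counts per gene and cell, which per the labels and methods came from Cell Ranger 3.0.2 with STAR 2.5.1b on mm10 and were handled in R 3.6.0 with Seurat 3. All 9661 deposited cells were kept, with no normalised or comparison columns in the files. From these counts, cells were clustered with scanpy 1.11.5 (Python 3.11.15, 2000 variable genes, 20 principal components, 20 neighbours, Leiden resolution 1 through igraph 0.11.9), without the 9 genes and the other genes reported on, each library alone and all together. A cluster took the name of a type, written as X-like, when at least 3 of its markers were detected, their mean relative level was at least 0.3 and the lead over the next type was at least 0.1. SC-like cells also named otherwise in the joint clustering (4 in WT, 1 in P27NULL and 9 in S2CK) were left out. Doublets were kept, since Scrublet called 11 of 9661 cells, and an alternative removed the 268 highest scores. These naming thresholds, and the leaving out of a list of red cell markers from naming, were set after the data were seen.

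UMIs were summed per library and cell type and given per 1000000. With 1 library per genotype there is no replicate, so that values carry counting intervals (scipy 1.17.1, numpy 2.4.6, pandas 2.3.3) and no test between genotypes. TMM factors came from edgeR 4.0.16 in R 4.3.3. The intervals were computed on simulated Poisson counts as a check of the calculation. These counts hold no spread between cells or animals, so the check cannot show how the intervals fare on the real counts. The genes, the BMP list and the lists of markers were chosen with earlier results of these data known. Genes of the BMP list were named where past the fold in SC-like cells. Smad4, Smad5, Tcf3 and Tcf4 in SC-like cells and Bmp6, Bmp7, Bambi, Hey1 and Msx1 in melanotroph-like cells lie outside the naming rule and were chosen after their values were seen. Cells were called female with an Xist UMI and none of 4 Y-linked genes, and male without an Xist UMI, and cells with both were left out of the sex split.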

Additional observations from a re-analysis of the deposited data

Results flagged for a closer look

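Id1 and Id3 went in opposite directions in different cell types between the same libraries. The log2 ratio of Id1 for P27NULL against WT was 1.79 in SC-like and -1.11 in connective-tissue-like cells, and for S2CK against WT it was 1.08 in SC-like and -1.51 in endothelial-like cells. For Id3 it was 2.36 in SC-like and -0.56 in endothelial-like cells for P27NULL against WT, and 1.31 and -0.34 for S2CK against WT. The ratio of Id4 for S2CK against WT was -1.11 in SC-like and 0.31 in melanotroph-like cells. Each of these differences between cell types has 1 library a side and was not tested.

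Id3 in SC-like cells of S2CK also went in opposite directions against the cells of each sex of P27NULL, with log2 ratios of -1.23 against male and 2.38 against female cells, the latter on 2 UMIs. This difference was not tested.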

How the results depend on the processing

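No paired analysis was possible because there is 1 library per genotype. Of the results that answer a comparison, 62 values under an alternative kept their direction and moved little, 8 moved and 1 reversed. In SC-like cells the log2 ratio of Id3 for P27NULL against WT ranged from 1.76, when cells counted equally, to 2.54, on male cells, and was -1.07 (-4.16 to 0.86) on the 18 female P27NULL cells, on 2 UMIs. For S2CK against P27NULL it was -0.35 on cells thinned to 1000 UMIs, -0.18 when cells counted equally and 2.38, the reversed value, against female cells, where 132 UMIs stood against 2. For S2CK against WT it was 2.12 on thinned cells. Calls among the other 8 genes in SC-like cells over the 3 contrasts went from 4 to 7 without cells holding an endothelial or mural marker UMI. The share of all genes past the fold was not computed for this smaller set of cells, so nothing is read from the rise. Calls in the BMP list over both cell types and the 3 contrasts, 23 of 186 (against 7.27% of all genes tested), became 15 of 138 with at least 50 UMIs (3.98% of all genes), 74 of 284 with no filter (22.5%) and 67 of 186 at a log2 ratio of 0.5 (27.5%). These calls include Id1 to Id4, and the genes were chosen through Id3, so nothing is read from the shares. Of the single values, 22 moved and 581 did not. Scaling shifted all genes by 0.10 (TMM) and 0.13 (a total that left out Pomc and the mitochondrial and ribosomal protein genes) in SC-like cells of S2CK against P27NULL, and by 0.12 in melanotroph-like cells under both. Depth limited Bmp4, Smad6, Smad7 and Bmpr2, with 18 UMIs or fewer per library in SC-like cells. Names from each library alone, an alternative chosen after seeing the data, gave -0.80 for Id3 in S2CK against P27NULL.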

Other observations

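Gonadotroph-like cells held little Id3 and Id4 in WT, more of both in P27NULL and more Id4 in S2CK. Id3 had 1 UMI in WT (3.00 CPM, 0.08 to 16.7), 17 in P27NULL (35.3 CPM, 20.6 to 56.5) and 4 in S2CK (18.4 CPM, 5.01 to 47.1). The Id3 interval of S2CK overlapped those of WT and P27NULL. Id4 had 1 UMI (3.00 CPM, 0.08 to 16.7), 15 (31.2 CPM, 17.4 to 51.4) and 16 (73.5 CPM, 42.0 to 119), over 47, 130 and 38 cells. Id4 thus stood highest in S2CK in these cells, where it was lowest in SC-like cells, but its interval overlapped that of P27NULL. The shares of cells with Id3 in every library, and with Id4 in WT and P27NULL, are not told from those of macrophage-like cells.

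In corticotroph-like cells Id1 was at 24.8 CPM in WT, 8.15 CPM for P27NULL and 27.8 CPM for S2CK. Among connective-tissue-like cells of P27NULL, Id3 was at 1060 CPM in cells called male (103 UMIs) and 241 CPM in those called female (6 UMIs), the same order as in SC-like cells, whereas in endothelial-like cells it was at 1020 CPM in male and 1317 CPM in female cells.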
